A study of Mus musculus with 3 samples.

Results

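The interferon-stimulated genes examined here are 42 genes chosen by symbol as sensors of viral RNA, interferon receptors, signal proteins and antiviral effectors, and all 42 were found among the 39179 genes measured. The list is one of known functions and uses no threshold on the measured values, although earlier results of these data were known when it was drawn up. The cells were mouse embryonic stem cells of a Contactin2:eGFP line that had been transduced with a lentiviral αMHC:mCherry reporter, in which the heart muscle promoter of alpha myosin heavy chain (gene Myh6) drives mCherry. On day 4 of differentiation the cells received Sodium Nitroprusside, a nitric oxide donor, and after 25 days of differentiation they were sorted by fluorescence. NEG cells carried neither colour, MHC cells were positive for mCherry, and GFP cells were positive for eGFP with dim mCherry. The line, the reporters and the nitroprusside were common to the 3 populations, and no untreated or interferon-treated cells were analysed here. Each population gave 1 library, so the differences below could not be checked against replicates and carry no p-values.

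Interferons are secreted proteins that warn cells of infection. Cytosolic receptors for viral RNA and DNA switch on interferon genes, the interferons bind receptor pairs on the cell surface, and STAT and IRF transcription factors then switch on a large set of antiviral genes. Type I interferons act through Ifnar1 and Ifnar2 and type II interferon through Ifngr1 and Ifngr2. Many stem and progenitor cells are known to hold some of these genes at a basal level without infection.

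Values are read counts per gene that the authors divided by a size factor for each library, called values here. A gene counted as higher or lower when its log2(value + 1) ratio reached 2-fold and its larger value was at least 20. This rule concerns size alone and tests nothing, and the log2(value + 1) scale understates the differences of genes with few reads. Folds in the text are ratios of the values, with exact 95% intervals that cover counting error only.

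The GFP library held the highest value of 29 of the 38 members that reached 20 in any library, against 41.8% of all genes and 43.9% of protein-coding genes at the same minimum. Between GFP and MHC, 17 of 38 members were higher in GFP, where 15.6% of all genes and 16.2% of protein-coding genes were higher. Another 4 members were lower, where 16.4% of all genes and 16.2% of protein-coding genes were lower, and 17 lay within 2-fold. The median log2 ratio was 0.88 over these members, 0.01 over all genes and 0.06 over protein-coding genes. Oas2 and Rsad2 passed the minimum through GFP alone and so could not be counted as lower there. With no minimum 18 of the 42 genes were higher and 5 lower (13.8% and 18.1% of all genes), with a median of 0.84. Between GFP and NEG, 12 of 38 members were higher in GFP, where 14.1% of all genes and 15.1% of protein-coding genes were higher. There 4 members were lower, beside 15% of all genes and 14.2% of protein-coding genes, and the median log2 ratio was 0.83. With libraries scaled to total count instead, 19 members were higher in GFP than in NEG and 3 lower, beside 17.2% and 13.0% of all genes under that scaling. MHC and NEG were close. Of 36 members, 0 were higher in MHC and 3 were lower, with a median log2 ratio of −0.14, where 5.35% of all genes were higher and 5.21% lower. The comparisons of GFP with MHC and with NEG share the GFP library and are not independent.

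**Figure D1:**
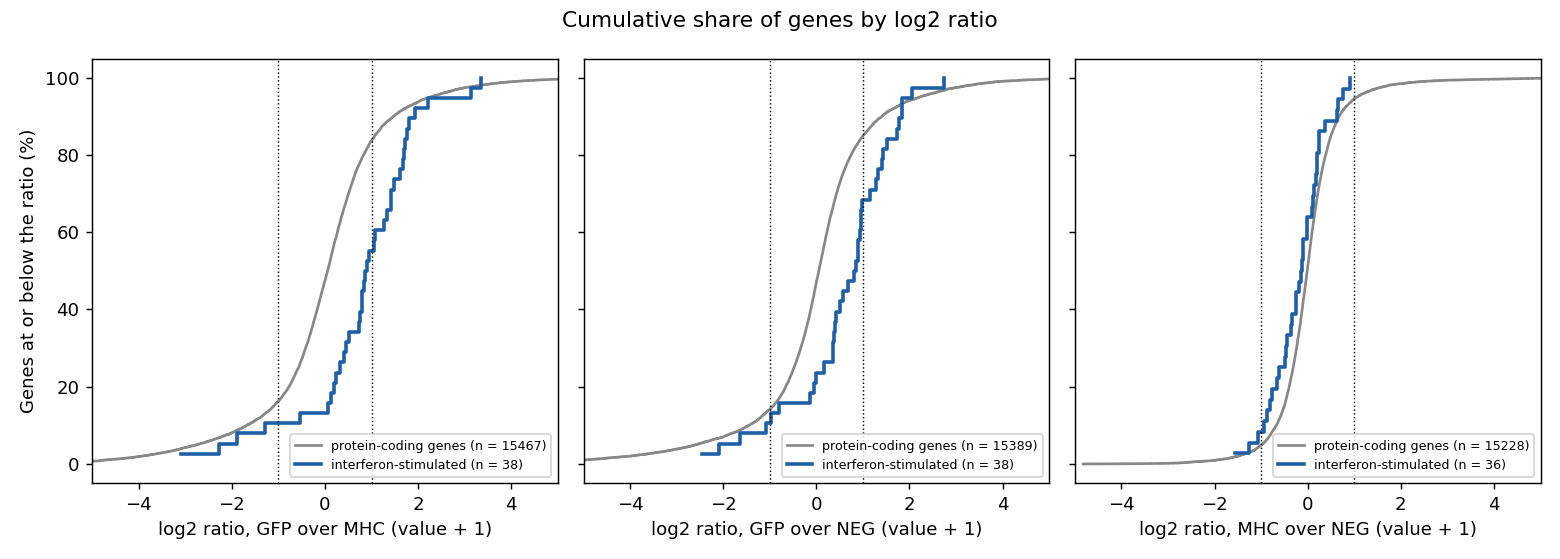
Cumulative share of genes (vertical axis, percent) at or below each log2(value + 1) ratio (horizontal axis), for protein-coding genes in grey and interferon-stimulated genes in blue, both with a larger value of at least 20. In both comparisons with GFP the blue line lies to the right of the grey one over most of its range, with medians of 0.88 and 0.83, while it lies slightly to the left between MHC and NEG, with a median of −0.14.

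Markers of other cell types differed between the libraries as well. Recovered reads numbered 47289405 to 52826956 per library. Of 8 measured markers of haematopoietic cells, which express many interferon-stimulated genes, 6 were higher in GFP against MHC and 6 against NEG, and 0 were lower. The summed value of the list of 10 was 3561.2 in GFP against 2171.7 in MHC and 1534.1 in NEG. Emr1, Laptm5, Csf1r, Tyrobp, Cd68 and Fcer1g were the higher ones, among them Emr1 at 96.9 in GFP against 14.2 in MHC and 3.39 in NEG, Csf1r at 963, 336 and 334 and Cd68 at 1220.3, 503 and 252 in the same order. Lyz2 (742, 821 and 463) and Itgam (262, 400.1 and 427) lay within 2-fold, and Ptprc (10.1, 4.05 and 3.39) and Spi1 (8.23, 4.05 and 2.26) were below 20. Each of the 10 markers had reads in every library, but Emr1 and Fcer1g reached 20 in GFP alone. Csf1r shares reads with the overlapping gene Hmgxb3, so its values are uncertain. Epicardial and mesothelial markers, among them Upk3b and Wt1, were higher in GFP than in both other libraries for all 6, with a summed value of 152387 in GFP, beside 4461.8 for MHC and 4820.2 for NEG. Cardiac muscle markers were lower in GFP against MHC for all 6. Against NEG 1 was higher (Myh7, which shares reads with an overlapping gene), 1 lower (Nkx2-5) and 4 within 2-fold. Their summed value was 12659 in GFP against 295394 in MHC and 8929.8 in NEG. Of 6 fibroblast markers, 2 were higher in GFP against MHC (Pdgfra by 3.19-fold and Dcn) and 4 lower (Lum by 29.0-fold, Col1a1 by 6.38-fold, Col1a2 and Col3a1). Of 4 measured endothelial markers, 1 was higher in GFP against MHC (Tek) and 2 lower (Flt1 by 58.9-fold and Pecam1). Of 6 Purkinje and conduction markers, 4 were higher in GFP against MHC (Cntn2, Hcn4, Cacna1g and Gja5) and 2, Irx3 and Etv1, were lower. Gja5 reached 20 in GFP alone and so could not be counted as lower, and Etv1 stayed below 20 in GFP. Irx3 shares reads with an overlapping gene. Cntn2, the gene of the eGFP reporter and 1 of the 4 higher markers, was at 10045 in GFP, beside 228 for MHC and 204 for NEG. The cells were sorted on reporters of Cntn2 and Myh6, so these 2 markers are not independent of the sort. The part of these cell types in the differences of the interferon-stimulated genes was not tested, and in bulk RNA fewer cells that express a gene and less RNA per cell cannot be told apart.

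Promoters of 6 members are shown as examples of 2 motifs of the interferon response. They were picked with motifs and values in view: Gbp2, Ifit1, Ifit3 and Isg15 were higher in GFP than in MHC and hold the first motif, and Irf1 and Isg20 were lower and hold the second, so they do not stand for all higher or lower members. The sequences are RefSeq's (build GRCm38.p6), from position −170 to position 50 of the first listed start (the start base is 1 and the base before it −1), 5′ to 3′ on the gene's strand. Capitals mark letters of the motifs. One is the core of the interferon-stimulated response element (ISRE), bound by STAT2 with IRF9 and by other IRF proteins, searched on both strands as GAAA, any 2 bases and GAAA. The other is the gamma-activated site (GAS), bound by STAT dimers and searched as TTCNNNGAA, which reads the same on both strands. In this stretch Gbp2 holds 1 match to the ISRE core, Ifit1 and Ifit3 hold 2 each and Isg15 holds 3 that overlap, while Irf1 and Isg20 hold 1 GAS each. The stretches are chr3:142620493-142620712 (+) for Gbp2, chr19:34640719-34640938 (+) for Ifit1, chr19:34583359-34583578 (+) for Ifit3, chr4:156200769-156200988 (−) for Isg15, chr11:53769844-53770063 (+) for Irf1 and chr7:78913254-78913473 (+) for Isg20.
Gbp2: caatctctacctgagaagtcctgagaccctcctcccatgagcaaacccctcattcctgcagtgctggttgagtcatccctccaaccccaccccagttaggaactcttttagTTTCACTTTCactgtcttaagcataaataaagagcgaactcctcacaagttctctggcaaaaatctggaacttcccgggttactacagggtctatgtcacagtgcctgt
Ifit1: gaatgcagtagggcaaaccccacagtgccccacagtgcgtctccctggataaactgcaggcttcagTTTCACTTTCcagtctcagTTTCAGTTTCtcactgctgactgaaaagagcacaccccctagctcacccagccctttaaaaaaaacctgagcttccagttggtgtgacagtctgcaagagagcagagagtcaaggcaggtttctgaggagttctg
Ifit3: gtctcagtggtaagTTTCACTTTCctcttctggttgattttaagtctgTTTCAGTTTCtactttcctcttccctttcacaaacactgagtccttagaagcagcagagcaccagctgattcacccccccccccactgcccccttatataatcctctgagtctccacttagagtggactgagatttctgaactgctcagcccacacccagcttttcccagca
Isg15: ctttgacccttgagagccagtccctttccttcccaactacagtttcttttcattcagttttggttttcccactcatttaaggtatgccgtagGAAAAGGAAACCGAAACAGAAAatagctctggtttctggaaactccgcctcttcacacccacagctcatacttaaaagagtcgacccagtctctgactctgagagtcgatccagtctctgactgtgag
Irf1: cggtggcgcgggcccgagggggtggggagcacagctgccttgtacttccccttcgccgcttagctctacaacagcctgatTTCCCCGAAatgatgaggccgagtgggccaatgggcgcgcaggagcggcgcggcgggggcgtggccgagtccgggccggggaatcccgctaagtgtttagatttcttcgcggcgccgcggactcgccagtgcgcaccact
Isg20: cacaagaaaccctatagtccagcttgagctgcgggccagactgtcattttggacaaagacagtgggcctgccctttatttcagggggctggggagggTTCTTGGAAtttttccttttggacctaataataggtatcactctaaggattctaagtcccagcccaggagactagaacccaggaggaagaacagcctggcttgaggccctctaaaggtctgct

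Over the whole window of 250 bases before to 50 bases after a start, 34 members had a promoter in the RefSeq table, and Usp18, Oas2, Dhx58, Mx1, Mx2, Ifi27, Parp14 and Rtp4 had none there. The ISRE core was present in 15 of these 34 genes (44.1%), beside 3.99% of the 27025 genes and 3.44% of the 32851 promoters in the table. GAS was present in 11 of 34 (32.4%), beside 9.55% of genes and 8.30% of promoters. Of the 13 members with a promoter that were higher in GFP than in MHC, 8 held the ISRE core: Gbp2, Gbp3, Ifit1, Ifit3, Rsad2, Ifih1, Ifitm3 and Isg15. The other 5, Oasl2, Irf5, Xaf1, Irf3 and Ifnar2, did not. Of the 14 within 2-fold, 5 held it, namely Ddx58, Bst2, Ifitm2, Stat2 and Irf2. Of the 4 lower ones, 0 held it. GAS was in 2 of the 13 higher members (Ifitm3 and Ifnar2), in 5 of the 14 within 2-fold (Ifnar1, Ifit2, Bst2, Irf2 and Ifi35) and in 3 of the 4 lower ones (Irf1, Isg20 and Irf8, but not Ifngr1). A match of letters is a description and not a bound site, and no test was made of these counts.

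**Figure D2:**
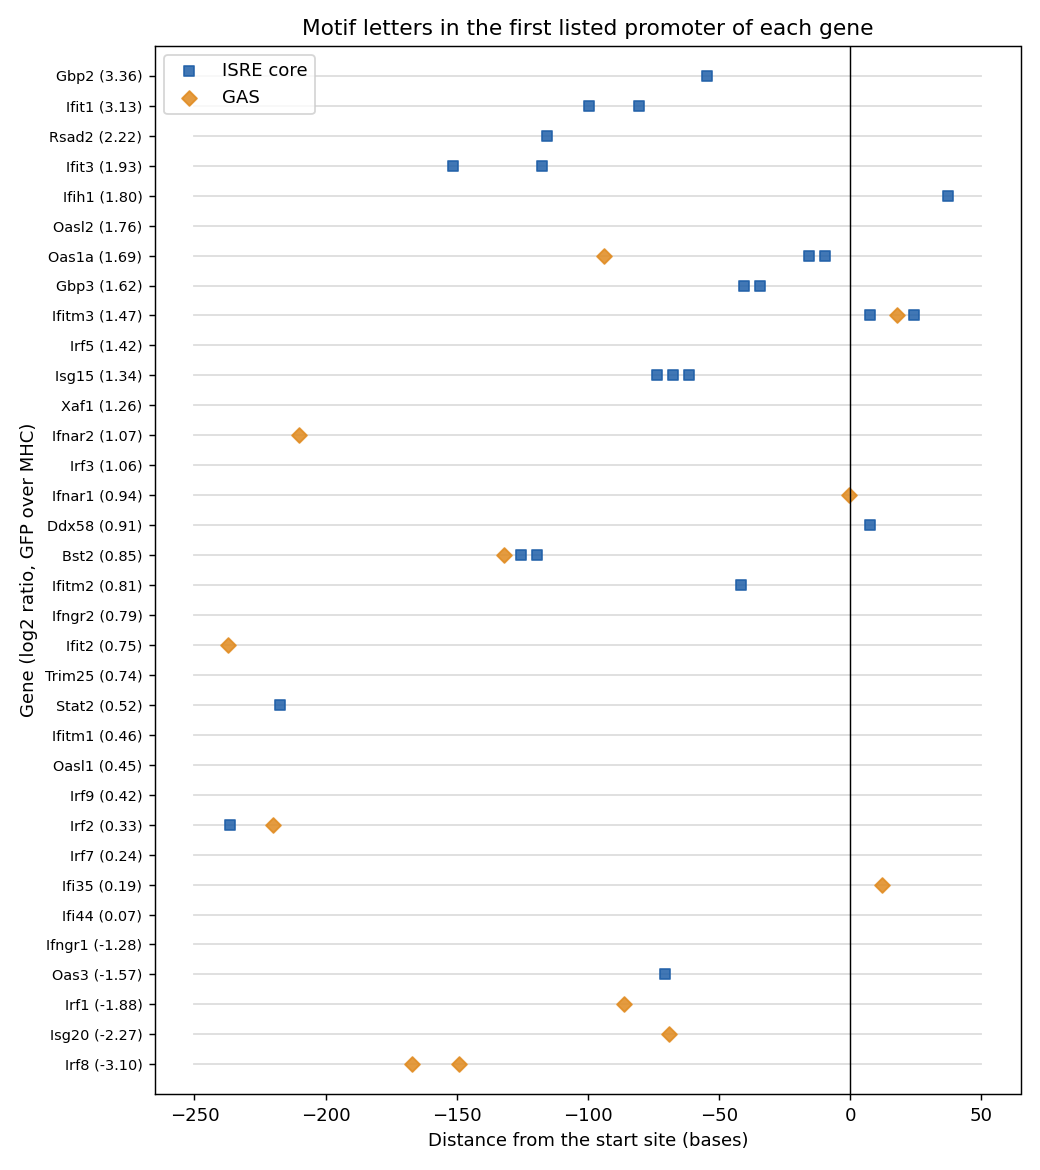
Positions of motif letters (horizontal axis, bases from the start site) in the first listed promoter of each of 34 members, ordered from top to bottom by the log2(value + 1) ratio of GFP over MHC in brackets. Blue squares mark the ISRE core and orange diamonds mark GAS; the 4 members with the highest ratios, Gbp2, Ifit1, Rsad2 and Ifit3, each have a blue square before the start site.

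Antiviral effectors that differed 2-fold between GFP and MHC were mostly higher in GFP. Of 18 effectors, 14 reached a value of 20 in GFP or MHC. Of these, 8 were higher in GFP than in MHC (beside 15.6% of all genes), 1 was lower (beside 16.4%) and 5 lay within 2-fold. The median log2 ratio was 1.55. Oas2 and Rsad2, which passed the minimum through GFP alone, are among the higher ones against both MHC and NEG. Over all 18 effectors the median against MHC was 1.16. Against NEG, 7 of the 14 were higher in GFP (beside 14.1% of all genes), 1 was lower (beside 15%) and 6 lay within 2-fold. The median there was 1.12.

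Gbp2 (ENSMUSG00000028270, chr3:142620602-142638008, mm10), an interferon-induced guanylate-binding protein that attacks pathogen compartments, had a value of 1473.5 in GFP against 143 in MHC and 219 in NEG. It stood far above the other libraries in GFP, 10.3-fold (95% interval from 8.68 to 12.3) over MHC and 6.72-fold (95% interval from 5.79 to 7.84) over NEG. This was the highest ratio among the members in either comparison. Its neighbour Gbp3 (chr3:142560052-142573209) had a value of 139 in GFP, beside 44.6 for MHC and 71.2 for NEG. Gbp3 was thus 3.12-fold (95% interval from 2.22 to 4.47) higher in GFP than in MHC, and 1.95-fold (95% interval from 1.45 to 2.66) above NEG, just short of the 2-fold limit.

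The Ifit genes encode proteins that bind viral RNA and block its translation, and the 3 members lie within 99.3 kb of each other on chromosome 19. Ifit1 (ENSMUSG00000034459, chr19:34640871-34650009) had a value of 256 in GFP against 28.4 in MHC and 61.0 in NEG. It was 9.02-fold (95% interval from 6.11 to 13.8) higher in GFP than in MHC and 4.20-fold (95% interval from 3.13 to 5.72) higher than in NEG. Ifit3 (ENSMUSG00000074896, chr19:34583531-34588731) had a value of 505 in GFP, beside 132 for MHC and 141 for NEG, so MHC and NEG differed by less than counting error and GFP stood apart. Its fold was 3.84 (95% interval from 3.17 to 4.68) over MHC and 3.58 (95% interval from 2.94 to 4.38) over NEG. Ifit3 has a closely similar copy beside it, and the sources used here do not say how reads that fit both were counted. Ifit2 (chr19:34550694-34576419) followed another order, with a value of 1208.4 in GFP against 718 in MHC and 424 in NEG. It was 2.85-fold (95% interval from 2.54 to 3.21) higher in GFP than in NEG and within 2-fold of MHC at 1.68-fold (95% interval from 1.53 to 1.85).

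The Ifitm genes encode small membrane proteins that stop viruses from fusing with the cell, and 3 of them lie within 55.9 kb on chromosome 7. Ifitm3 (ENSMUSG00000025492, chr7:141009586-141010770) had a value of 4896.6 in GFP, beside 1763.5 for MHC and 2002.9 for NEG, 2.78-fold (95% interval from 2.63 to 2.93) higher in GFP than in MHC and 2.44-fold (95% interval from 2.32 to 2.58) higher than in NEG. Ifitm2 (chr7:140954839-140955961) had a value of 7662.6 in GFP against 4382.8 in MHC and 5958.9 in NEG, within 2-fold in each comparison. Ifitm1 lay within 2-fold as well, at 411, 299 and 319 in the same order. Per kilobase of exon, Ifitm2 and Ifitm3 were the most abundant members in all 3 libraries, with levels of 11699 and 7222 per kilobase in GFP, 6691 and 2601 in MHC and 9097.5 and 2954 in NEG. Counts were read as covering whole gene spans, introns included, so levels per kilobase of exon compare different genes only roughly.

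Bst2, or tetherin, which holds budding virus particles at the cell surface, came next by level per kilobase in all 3 libraries. Its value was 3299.8 in GFP, beside 1825.3 for MHC and 2321.4 for NEG. GFP was the highest, but by 1.81-fold (95% interval from 1.71 to 1.91) over MHC and so within the 2-fold limit.

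The OAS family makes the messenger 2′-5′ oligoadenylate that activates an RNA-cutting enzyme, and it was mostly near the limit of detection. Oasl2, a family member on chromosome 5, had a value of 160 in GFP against 46.6 in MHC and 82.5 in NEG, 3.43-fold (95% interval from 2.47 to 4.86) higher in GFP than in MHC. Oas2 had 27 reads in GFP, 7 reads in MHC and 6 in NEG, a fold of 3.48 over MHC with a wide interval (1.48 to 9.47). Oas1a had 6, 1 and 1 reads and Oas3 had 3, 10 and 2 reads in the same order. Their ratios between GFP and MHC were 5.41-fold higher (95% interval from 0.657 to 249) and 3.69-fold lower (95% interval from 0.951 to 20.9), and both intervals include no difference. Oasl1 had 8, 5 and 6 reads and shares 38 bases with the antisense gene Gm13822.

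Among the other effectors, the radical enzyme gene Rsad2 (viperin) was low but higher in GFP, and Mx2 was level. Rsad2 had a value of 32.0 in GFP, beside 6.08 for MHC and 11.3 for NEG, 5.26-fold (95% interval from 2.19 to 15.3) higher in GFP than in MHC and 2.83-fold (95% interval from 1.37 to 6.41) higher than in NEG. Mx2, a gene of the dynamin-like Mx GTPases, had a value of 47.5 in GFP against 43.6 in MHC and 52.0 in NEG. Mx1 had 4 reads in GFP, 3 reads in MHC and 7 in NEG, which is too few to compare. At these depths, differences in Mx1, Oas1a, Oas3 and Oasl1 were not detectable.

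Isg20, an RNA exonuclease, was the effector that went the other way. Isg20 (ENSMUSG00000039236, chr7:78913424-78920362) had a value of 248 in GFP, beside 1197.3 for MHC and 777 for NEG. It was lowest in GFP, by 4.83-fold (95% interval from 4.23 to 5.54) against MHC and by 3.14-fold (95% interval from 2.72 to 3.62) against NEG.

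**Figure D3:**
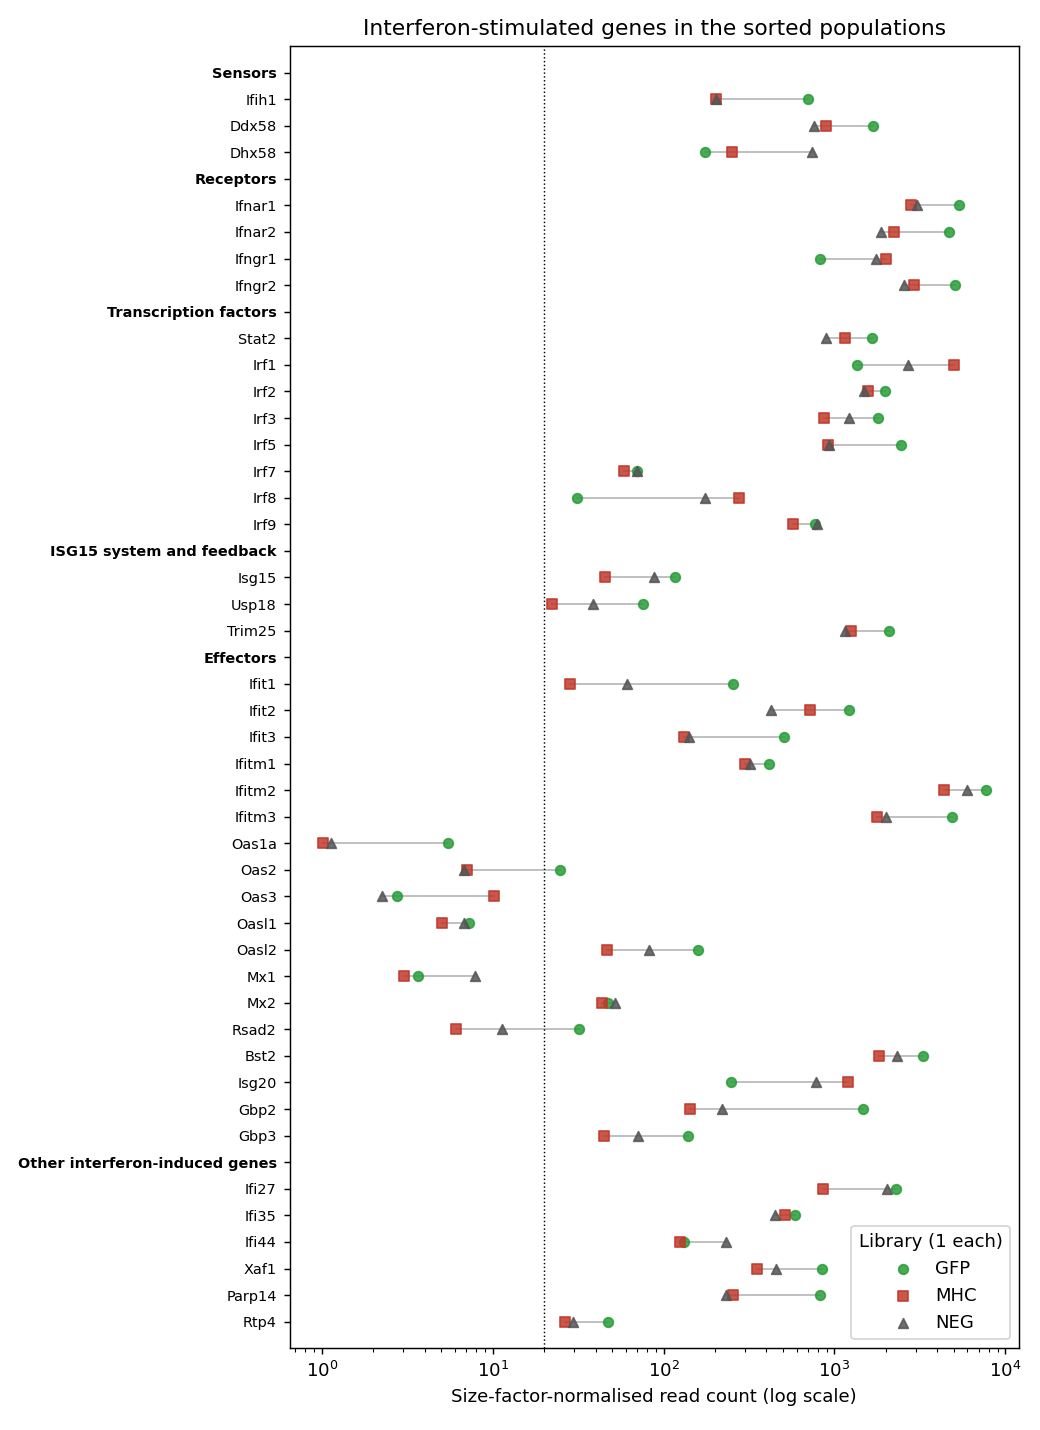
Value of each of the 42 interferon-stimulated genes (horizontal axis, size-factor-normalised read count, log scale) in the GFP (green circles), MHC (red squares) and NEG (grey triangles) libraries, 1 library each, grouped by role; the dotted line marks a value of 20. Green circles lie at the right end for most effectors, as for Gbp2 (1473.5 in GFP, 143 in MHC), and at the left end for Irf8, Isg20, Irf1, Ifngr1 and Dhx58.

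Of the 3 cytosolic RNA sensors, Ifih1 and Ddx58 were highest in GFP and Dhx58 was highest in NEG. Ifih1 (MDA5; ENSMUSG00000026896, chr2:62595798-62646255), which recognises long double-stranded RNA, had a value of 702 in GFP against 202 in MHC and 203 in NEG. GFP stood 3.48-fold (95% interval from 2.98 to 4.09) above MHC and 3.45-fold (95% interval from 2.93 to 4.08) above NEG, while MHC and NEG were indistinguishable by counting error. Ddx58 (RIG-I), which recognises RNA ends with a triphosphate, had a value of 1683.7 in GFP, beside 894 for MHC and 759 for NEG. Its fold was 1.88 (95% interval from 1.74 to 2.04) over MHC and 2.22 (95% interval from 2.03 to 2.43) over NEG. Dhx58 (LGP2), a relative without signalling domains, had a value of 174 in GFP against 252 in MHC and 742 in NEG, 4.27-fold (95% interval from 3.63 to 5.05) lower in GFP than in NEG. It overlaps the antisense gene Gm11547 over 2637 bases, whose value was 83.2 in GFP, beside 231 for MHC and 871 for NEG, so reads of both genes cannot be told apart and Dhx58 is uncertain.

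The subunits of the 2 interferon receptors did not share 1 order. Ifnar1, Ifnar2 and Ifngr2, which lie within 192 kb on chromosome 16, had their highest value in GFP, and Ifngr1 on chromosome 10 had its lowest there. Ifnar1 (chr16:91485238-91507441) had a value of 5371.0 in GFP against 2790.6 in MHC and 3052.3 in NEG, 1.92-fold (95% interval from 1.84 to 2.01) above MHC. Ifnar2 (chr16:91372783-91405589) had a value of 4680.0 in GFP, beside 2227.4 for MHC and 1877.5 for NEG, 2.10-fold (95% interval from 1.998 to 2.21) above MHC and 2.49-fold (95% interval from 2.36 to 2.64) above NEG. It shares 13869 bases with the gene model Gm21970 and is uncertain. Ifngr2 (chr16:91547072-91565169), the signalling subunit of the type II receptor, had a value of 5082.2 in GFP against 2936.4 in MHC and 2558.6 in NEG, 1.73-fold (95% interval from 1.65 to 1.81) above MHC.

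Ifngr1 (ENSMUSG00000020009, chr10:19591949-19610229), the ligand-binding subunit of the same type II receptor, had a value of 825 in GFP, beside 2009.6 for MHC and 1747.6 for NEG. It was 2.43-fold (95% interval from 2.25 to 2.64) lower in GFP cells than in MHC and 2.12-fold (95% interval from 1.95 to 2.301) lower than in NEG. Set per kilobase of exon, the level of Ifngr2 exceeded that of Ifngr1 in all 3 libraries. The levels per kilobase were 1349.1 for Ifngr2 and 290 for Ifngr1 in GFP, 780 and 706 in MHC, and 679 and 614 in NEG, so the subunits were near each other except in GFP. As counts may include introns, the small gaps in MHC and NEG do not rank the subunits.

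Of the 8 transcription factors of the pathway, 2 were higher in GFP than in MHC (beside 15.6% of all genes). Another 2 were lower (beside 16.4%) and 4 lay within 2-fold, with a median log2 ratio of 0.37. With so few genes these counts do not set the factors apart from all genes. Stat2 and Irf9 form the core of the complex that binds the ISRE. Stat2 had a value of 1660.9 in GFP against 1158.8 in MHC and 890 in NEG, within 2-fold throughout and 1.87-fold (95% interval from 1.72 to 2.03) higher in GFP than in NEG. Irf9 had a value of 768 in GFP, beside 574 for MHC and 795 for NEG, nearly equal in GFP and NEG.

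Irf1 (ENSMUSG00000018899, chr11:53770014-53778374), an activator induced through GAS by type II interferon and by inflammatory signals, was lowest in GFP. Its value was 1362.9 in GFP against 5024.0 in MHC and 2690.8 in NEG, 3.69-fold (95% interval from 3.48 to 3.91) lower in GFP cells than in MHC. Against NEG it was 1.97-fold (95% interval from 1.85 to 2.11) lower, just short of the 2-fold limit, and MHC was 1.87-fold (95% interval from 1.78 to 1.96) above NEG. Irf2, which competes with Irf1 for the same sites, had a value of 1975.3 in GFP, beside 1571.0 for MHC and 1479.8 for NEG, and its widest ratio was 1.33-fold (95% interval from 1.25 to 1.43).

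Irf3, the factor that RNA and DNA sensors activate to switch on interferon genes, had a value of 1797.0 in GFP against 863 in MHC and 1216.6 in NEG. It was 2.08-fold (95% interval from 1.92 to 2.26) higher in GFP than in MHC, and it overlaps Bcl2l12 over 1065 bases, whose value was 489 in GFP, beside 459 for MHC and 612 for NEG. Irf5, a relative that acts in inflammatory signalling, had a value of 2456.1 in GFP against 920 in MHC and 925 in NEG, 2.67-fold (95% interval from 2.48 to 2.88) above MHC. Its span shares 1043 bases with Tnpo3, whose value was 4442.3 in GFP, beside 2753.1 for MHC and 2638.8 for NEG. Irf7, the interferon-inducible factor that amplifies type I interferon, was low and level, with 69.5 in GFP against 58.7 in MHC and 70.0 in NEG.

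Irf8 (ENSMUSG00000041515, chr8:120736358-120756694), a factor of macrophage and dendritic cell development, was the lowest member relative to MHC. Its value was 31.1 in GFP, beside 274 for MHC and 174 for NEG, 8.83-fold (95% interval from 6.17 to 13.0) lower in GFP cells than in MHC and 5.60-fold (95% interval from 3.84 to 8.37) lower than in NEG. The whole gene lies within the gene model Gm20388 on the same strand, so reads of that model inside the span count for Irf8 as well. Irf3, Irf5, Irf7, Irf8 and Irf9 are all uncertain for such overlaps, although the shared stretch is 45 bases for Irf7 and 123 bases for Irf9.

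In the ISG15 system, Isg15 and Usp18 were lowest in MHC and highest in GFP. Isg15 (ENSMUSG00000035692, chr4:156199424-156200818), a ubiquitin-like protein that is attached to viral and cellular proteins, had a value of 117 in GFP against 45.6 in MHC and 88.1 in NEG. It was 2.57-fold (95% interval from 1.81 to 3.69) higher in GFP than in MHC, while the interval against NEG, at 1.33-fold, was 0.994 to 1.78 and included no difference. Usp18, which removes ISG15 and damps type I receptor signalling, had a value of 75.9 in GFP, beside 22.3 for MHC and 38.4 for NEG, 3.40-fold (95% interval from 2.11 to 5.72) above MHC. Trim25, a ubiquitin ligase that activates RIG-I, had a value of 2085.9 in GFP against 1248.9 in MHC and 1154.5 in NEG and stayed within 2-fold at 1.67-fold (95% interval from 1.56 to 1.79) over MHC.

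Of the 6 remaining interferon-induced genes, Parp14, Ifi27 and Xaf1 were higher in GFP than in MHC (beside 15.6% of all genes). Lower ones numbered 0 (beside 16.4%), which says little with 6 genes. Against NEG, 1 was higher (Parp14, beside 14.1%), 0 were lower (beside 15%) and 5 lay within 2-fold. Parp14, an ADP-ribosyltransferase, had a value of 828 in GFP, beside 253 for MHC and 230 for NEG, 3.27-fold (95% interval from 2.84 to 3.78) above MHC and 3.59-fold (95% interval from 3.08 to 4.20) above NEG. Ifi27, a small membrane protein gene, set MHC apart rather than GFP, with 2275.1 in GFP against 855.9 in MHC and 2040.1 in NEG. It was 2.66-fold (95% interval from 2.46 to 2.88) higher in GFP than in MHC and 1.12-fold (95% interval from 1.05 to 1.19) higher than in NEG. Xaf1, an antagonist of apoptosis inhibitors, had a value of 842 in GFP, beside 351 for MHC and 454 for NEG. Ifi35 (584 in GFP against 512 in MHC and 450 in NEG) and the receptor-transporting gene Rtp4 (47.5, 26.3 and 29.4) lay within 2-fold, and Ifi44 was highest in NEG, at 132, 126 and 232.

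**Figure D4:**
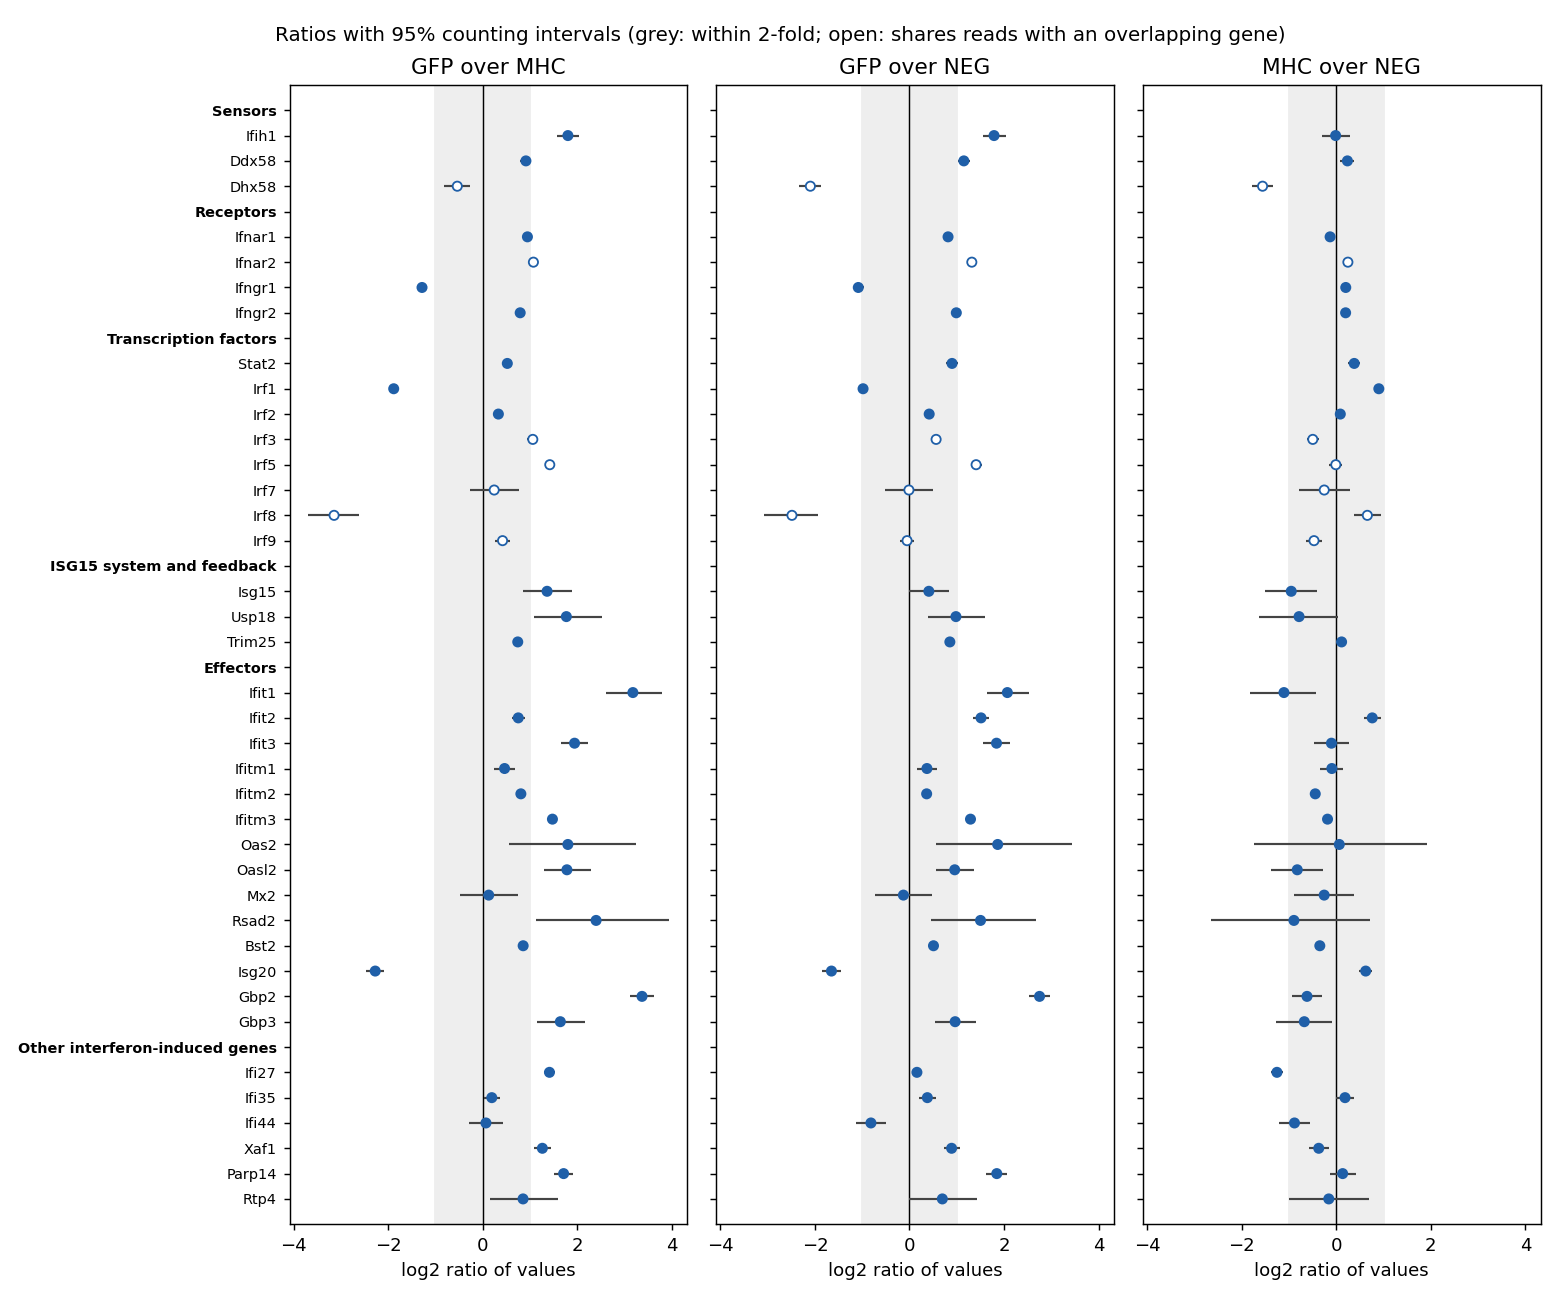
Ratios of values for the 38 members that reached 20 in any library (horizontal axis, log2, same scale in each panel), with bars for exact 95% counting intervals; grey bands mark 2-fold and open circles mark genes that share reads with an overlapping gene. Points lie right of the band for 17 members in GFP over MHC and for 12 in GFP over NEG, whereas in MHC over NEG those beyond the band are Dhx58, Ifi27 and Ifit1, on the left.

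Across the measured members, the order of the libraries was GFP, NEG, MHC for 19 genes and GFP, MHC, NEG for 10. Among the rest, 4 were highest in MHC and lowest in GFP (Ifngr1, Irf1, Irf8 and Isg20), and 5 were highest in NEG (Irf7, Irf9, Mx2, Ifi44 and Dhx58). Some of these orders lie within counting error. Between MHC and NEG, the interval left out a ratio of 1 for 24 of the 38 members. For Irf7, Irf9 and Mx2 the interval between GFP and NEG included a ratio of 1, and with scaling to total count GFP was above NEG. Per kilobase of exon, the median level of the 38 was 253 in GFP, beside 117 for MHC and 132 for NEG, while that of protein-coding genes was 188, 181 and 183. MHC was the lowest library for 23 of 38 members (60.5%), beside 33.9% of protein-coding genes. Members that stood past 2-fold in GFP against both other libraries numbered 10 on the higher side (26.3% of 38, beside 11.7% of protein-coding genes): Ifih1, Ifnar2, Irf5, Ifit1, Ifit3, Ifitm3, Oas2, Rsad2, Gbp2 and Parp14. Of these, Oas2 and Rsad2 passed the minimum through GFP alone, Ifnar2 and Irf5 are uncertain for overlaps, and Rsad2 was within 2-fold of NEG at a pseudocount of 10. On the lower side such members numbered 3 (7.89%, beside 10.9%), namely Ifngr1, Irf8, which is uncertain, and Isg20. The 3 members lower in MHC than in NEG were Dhx58 by 2.94-fold (95% interval from 2.54 to 3.42), Ifi27 by 2.38-fold (95% interval from 2.20 to 2.59) and Ifit1 by 2.15-fold (95% interval from 1.34 to 3.53).

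The ligands that were looked up were at or near 0. Of 15 interferon symbols searched, 13 were found, among them Ifnb1, Ifng and Ifna4, and other interferon genes were not looked up. Of the 13, 0 reached a value of 20 and the highest value was 9.14, for Ifnl2 in GFP, which overlaps Samd4b. Ifnb1, the type I interferon that most cell types can make, had 1 read in GFP and 0 in MHC and NEG. Ifng had 0 reads in every library, which allows a value of up to 2.74 in GFP against 3.04 in MHC and 3.39 in NEG, those of 3 reads.

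Of 17 upstream and signalling genes of the pathway, 6 were higher in GFP than in MHC (beside 15.6% of all genes). Another 2 were lower (beside 16.4%) and 9 lay within 2-fold, with a median log2 ratio of 0.29. Il10rb, 1 of the 6 higher ones, shares reads with Gm21970 and is uncertain. Tmem173 (STING), the adaptor of the cytosolic DNA sensor, had a value of 1341.8 in GFP, beside 92.2 for MHC and 190 for NEG, 14.6-fold (95% interval from 11.8 to 18.2) higher in GFP than in MHC. Tlr3, the endosomal sensor of double-stranded RNA, was 3.37-fold (95% interval from 2.79 to 4.09) higher, Nlrc5, an activator of class I antigen-presentation genes, 3.09-fold (95% interval from 1.88 to 5.30) and the kinase gene Ikbke 2.998-fold (95% interval from 2.65 to 3.40). The feedback inhibitor gene Socs3, which was singled out with its values in view, had a value of 2521.9 in GFP against 7278.7 in MHC and 5574.8 in NEG, 2.89-fold (95% interval from 2.76 to 3.02) lower in GFP cells than in MHC.

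Of 36 genes measured from a list of further interferon-induced genes, 18 were higher in GFP than in MHC (beside 15.6% of all genes). Another 4 were lower (beside 16.4%) and 14 lay within 2-fold, with a median log2 ratio of 0.99. Against NEG, 17 of 37 were higher (beside 14.1%), 4 lower (beside 15%) and 16 within 2-fold (median 0.84). Gbp5 and Tgtp1 passed the minimum through GFP alone and so could not be counted as lower. Cmpk2 passed it against NEG through NEG alone and could not be counted as higher. The immunity-related GTPase genes Tgtp1 and Ifi47 were 11.8-fold (95% interval from 7.32 to 20.3) and 10.1-fold (95% interval from 7.39 to 14.0) higher in GFP than in MHC, and both share reads with Olfr56 and are uncertain. Gbp4, Gbp9, Ifi203, Sp100 and Slfn5, also among the higher ones, are uncertain for overlaps as well. Ifi205, of the family that binds DNA in the nucleus and cytosol, was 10.1-fold (95% interval from 7.43 to 14.0) lower in GFP cells than in MHC. Ifitm5, a relative of the antiviral Ifitm genes that is known from bone-forming cells and not for antiviral action, had a value of 51.2 in GFP, beside 1387.7 for MHC and 4152.6 for NEG. Ifitm5 and its relative Ifitm10, which shares reads with Ctsd and is uncertain, are among the 4 lower genes in each comparison. The lower counts are thus not of well-established interferon-induced genes alone.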

How the data were processed

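RNA of 3 sorted mouse populations, with 1 library each, was analysed from values the authors deposited. TruSeq libraries were read on a HiSeq2500 (50 bases, single end), per the labels' protocols. The submitters' processing notes name mm10, DESeq2 1.2.10, bedtools 2.17.0, STAR 2.3.0e and FastQC 0.11.2, with no roles. The deposited signal is a read count per gene divided by 1 size factor per library. Whole reads were recovered as multiples of the value of 1 read (0.914 in GFP against 1.01 in MHC and 1.13 in NEG), and 100% of values came out whole within 0.01. With 1 library per population no count model was fitted, so 0 genes are called by one. Of 1091 genes of 300 or more reads in GFP nested in another gene's span, 100% had a host count at or above their own, as did 100% of the 670 on the opposite strand. Counts were accordingly read as covering whole gene spans on both strands, and a gene is uncertain where an overlapping gene had at least 25% of its reads (8 members). Exon lengths are from GENCODE M21, and levels per kilobase divide counts over whole spans by exon length, so reads in introns can raise them. Ratios used a pseudocount of 1, intervals are Clopper-Pearson (conditional binomial), and the reads, having no molecular identifiers, are not independent molecules. The computation was tested on simulated data. Python 3.11.15, scipy 1.17.1 and pandas 2.3.3 were used. Members and lists were chosen with earlier results of these data known. Every member is named, and of the signalling and further interferon-induced lists the 4 genes with the largest log2(value + 1) ratio between GFP and MHC in either direction. Other genes of these lists are named where a limit applies to them or where they were singled out. Markers of cell types were named with their values in view. Alternatives were another pseudocount, minimum value, scaling and fold limit, and leaving out uncertain members.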

Additional observations from a re-analysis of the deposited data

How the results depend on the processing

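Across another pseudocount and both other scalings, 16 of the 17 members higher in GFP than in MHC and all 4 lower ones stayed past 2-fold, Irf3 being lost with upper-quartile scaling. Against NEG, 11 of 12 higher ones did so, Rsad2 being lost at a pseudocount of 10, and 3 of 4 lower ones, Ifngr1 being lost with scaling to total count. That scaling raised the median log2 ratio of all genes from 0.01 to 0.19 against MHC and from 0.02 to 0.19 against NEG. The members' median became 1.05 and 0.9994 (0.86 and 0.81 above all genes), and 19 members were higher than in NEG and 3 lower (86.4% of differing members higher, beside 75% with the deposited values). At a 3-fold limit, 10 members were higher in GFP than in MHC (8.41% of all genes), 6 were higher than in NEG (7.74%), and 0 were lower in MHC than in NEG (1.90%). Without uncertain members, 2 were lower in GFP than in NEG. Between MHC and NEG, 1 member was higher in MHC with no minimum value (11.3% of all genes), and the median was −0.0105 at a minimum of 100. No difference past 2-fold changed direction, but these settings could not have turned one: a pseudocount cannot change a sign, and the scalings moved ratios by far less than 2-fold. Ratios near 0 could turn. With scaling to total count, the log2 ratio of GFP over NEG went from −0.05 to 0.11 for Irf9 and from −0.13 to 0.04 for Mx2. No paired analysis was possible because each population has 1 library. Folds of Oas2, Rsad2 and Usp18 rest on fewer than 100 reads per library.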

Other observations

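Other genes of the Ifit and Gbp clusters, singled out with their values in view, had values of the same kind with 1 exception. In the Ifit cluster, the gene listed as I830012O16Rik (RefSeq name Ifit3b), the close copy of Ifit3, had a value of 399 in GFP, beside 97.2 for MHC and 115 for NEG. Gm14446 (RefSeq name Ifit1bl1) had 182 in GFP against 14.2 in MHC and 7.91 in NEG, a 12.8-fold ratio of GFP to MHC. The exception was 2010002M12Rik (RefSeq name Ifit1bl2), at 149 in GFP, beside 282 for MHC and 174 for NEG. Gbp2b, another guanylate-binding protein gene between Gbp3 and Gbp2, had 550 in GFP against 84.1 in MHC and 79.1 in NEG.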
